A study of Mus musculus with 12 samples.

Results

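The ligands *Cxcl12*, *Thpo*, *Angptl2*, *Csf1*, and *Flt3l* and the receptors *Cxcr4*, *Ackr3*, and *Flt3* were followed in RNA sequencing of sorted fetal liver (FL) cells. These 8 genes were listed by name as signals of the hematopoietic niche and their receptors, with earlier results of these data known. They occupied 9 of the 38127 rows of the count table, because the name *Flt3l* stands on 2 identifiers. The labels give all samples as C57BL/6 mouse FL cells sorted as negative for Ter119 and CD45. At embryonic day (E) 14.5, P2 cells were CD54-CD31-Kit+CD24+, a population with hepatoblasts was CD54+CD31- (the study names it CD324+), and endothelial cells were CD54+CD31+ (hereafter CD31+). A further group, again CD54+CD31-, came from E18.5 embryos. Each of these 4 groups had 3 libraries, numbered 1, 2, and 3, and the study describes the E14.5 libraries as independent litters. For the E18.5 libraries, the sources used here do not say how the 3 samples arose, so their p-values measure only the spread between those samples, which may be technical.

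The FL houses blood stem and progenitor cells before they move to the bone marrow, and the cells around them provide secreted and membrane-bound signals. CXCL12 is a chemokine that attracts and retains blood progenitors through CXCR4, whereas ACKR3 binds the same chemokine and removes it from the surroundings. Thrombopoietin, encoded by *Thpo*, acts on megakaryocytes and stem cells. CSF1 is a growth factor of macrophages and shares the receptor CSF1R with IL34. The ligand encoded by *Flt3l* acts through FLT3 on early lymphoid and dendritic progenitors, and ANGPTL2 is a secreted angiopoietin-like protein. CD45+ blood cells, on which several of these receptors are best known, were outside the sort. The values below are RNA levels of sorted populations and measure neither secreted protein nor the number of producing cells.

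Total counts per library were between 40714017 and 64368883, and any 2 libraries of a group were further apart than counting error alone would put them (lowest chi-square of their counts over its degrees of freedom, 42.0). Levels are CPM (reads of a gene scaled to a common library size) after TMM normalization, given as mean ± SD of 3 libraries. The E14.5 populations carried the genes of their gates. *Pecam1*, which encodes CD31, had 591 ± 51.5 CPM (SD, n = 3) in CD31+ cells, 6.08 ± 1.70 CPM (SD, n = 3) in CD54+CD31- cells, and 4.57, 29.0, and 8.24 CPM in the 3 P2 libraries. P2 replicate 2 stood apart, with a summed level of 12 endothelial markers of 435 CPM against 80.9 and 127 CPM in replicates 1 and 3. The summed level of 11 hepatoblast markers was between 78729.6 and 90473.2 CPM in CD54+CD31- cells. The same sum was between 774.8 and 778.5 CPM in P2 cells and between 959.0 and 1068.6 CPM in CD31+ cells. The E18.5 libraries went against their liver label in part: *Sftpc*, which encodes a lung surfactant protein, had 12377, 5095, and 5404 CPM there, and 14 of 15 lung epithelial genes were called higher than at E14.5. Replicate 1 at E18.5 also stood apart, with 2405 CPM of *Alb* (albumin) against 26609 and 34537 CPM in replicates 2 and 3. Tests of members and named genes against E18.5 are therefore given with and without that library. In these bulk samples, fewer cells of a type and less RNA per cell cannot be told apart.

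Among the ligands, *Angptl2* could not be read from these counts at all, and *Flt3l* only from short stretches. *Angptl2* (ENSMUSG00000004105) had 0 counts in all 12 libraries. In the GENCODE vM21 annotation of GRCm38 it lies on the plus strand at chr2:33216069-33247717, wholly inside the span of *Ralgps1*, which is on the minus strand, and none of its 6286 exon bases lies in an exon of that gene. The same was seen across the table. Of 363 protein-coding genes whose whole span lies within genes of the opposite strand and whose exons share no base with them, 359 (98.9%) had 0 counts in all 12 libraries. Of 13886 protein-coding genes that overlap no listed gene, 2187 (15.7%) had 0 counts, and of 4600 overlapped on the opposite strand over part of their span, 69 (1.50%). Genes lying within a gene of the same strand behaved alike, with 363 of 368 (98.6%) at 0. The 0 of *Angptl2* is thus shared with nearly every nested gene of the table and is no measure of its expression. *Ralgps1*, the gene around it, had 5.12 CPM in P2, 7.44 CPM in CD31+, 17.7 CPM in CD54+CD31- cells at E14.5, and 35.1 CPM at E18.5, and these are counts of *Ralgps1* as the table names them. *Angptl1*, *Angptl7*, *Ccl2*, *Cxcl10*, *Cxcr6*, and *Il2rg*, which the wider lists below also hold, were nested in the same way and had 0 counts throughout.

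**Figure D1:**
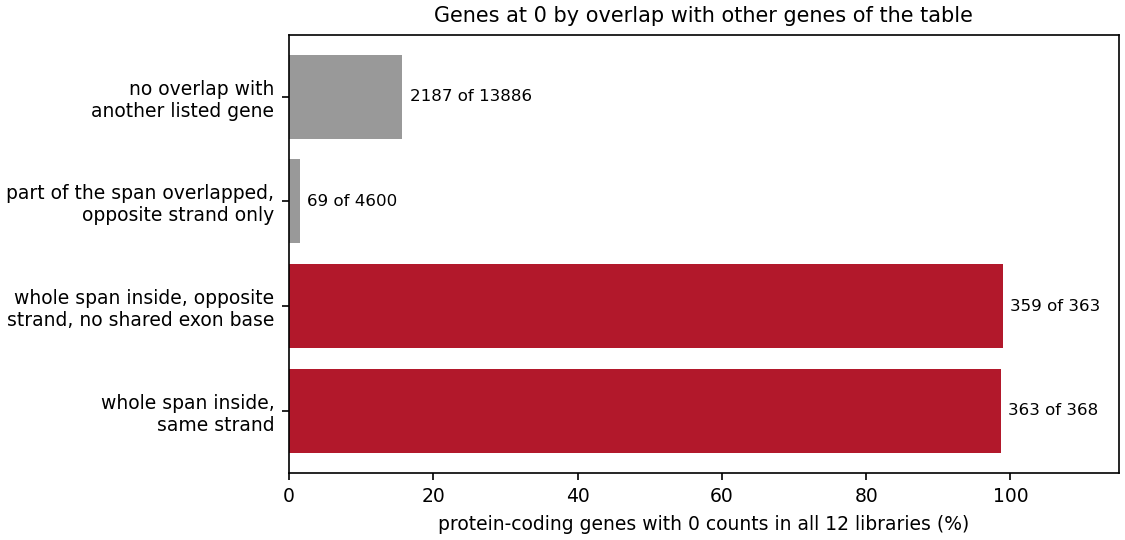
Share of protein-coding genes with 0 counts in all 12 libraries (horizontal axis, percent) by how their span overlaps other genes of the count table, with the number of genes beside each bar. Genes whose whole span lies inside other genes, as that of *Angptl2* does, were at 0 in 359 of 363 cases on the opposite strand with no shared exon base and in 363 of 368 on the same strand, and genes with no overlap in 2187 of 13886.

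For *Flt3l*, the row ENSMUSG00000089989 is named *Gm45713* in the annotation and runs over chr7:45125922-45136231 on the minus strand, through both *Rpl13a* and the *Flt3l* gene itself. Other genes cover 90.0% of its span. The 1026 bases that no other gene covers, chr7:45128762-45129787, hold 0 bases of its exons and lie next to *Rpl13a*, a ribosomal protein gene. The row ENSMUSG00000110206 is the annotated *Flt3l* gene at chr7:45129788-45136432, also on the minus strand. It is 97.0% covered, and its 201 free bases at chr7:45136232-45136432 hold 108 exon bases. Values of both rows are given below, but no order of the populations in *Flt3l* expression was drawn from them.

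The other 6 genes were mostly free of such overlap. *Cxcl12* (ENSMUSG00000061353, chr6:117168535-117181367, plus strand), *Csf1* (ENSMUSG00000014599, chr3:107741048-107760469, minus), *Cxcr4* (ENSMUSG00000045382, chr1:128588199-128592293, minus), and *Ackr3* (ENSMUSG00000044337, chr1:90203980-90216751, plus) shared 0 bases with other genes. *Thpo* (ENSMUSG00000022847, chr16:20724454-20734511, minus) shared 13.8% of its span with *Chrd* on the opposite strand, 239 exon bases of it included. *Flt3* (ENSMUSG00000042817, chr5:147330741-147400489, minus) shared 1.34%.

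The promoters of the 4 genes on which the results turn are shown because they fall into pairs: *Cxcl12* and *Thpo* were highest in CD54+CD31- cells at E14.5, and *Ackr3* and *Cxcr4* were higher than there both in CD31+ cells and at E18.5. Each window runs from 250 bases before to 50 bases after the RefSeq start, 5′ to 3′ on the gene's strand (GRCm38.p6), with motif matches in capitals.
Cxcl12 chr6:117168285-117168584 (plus strand): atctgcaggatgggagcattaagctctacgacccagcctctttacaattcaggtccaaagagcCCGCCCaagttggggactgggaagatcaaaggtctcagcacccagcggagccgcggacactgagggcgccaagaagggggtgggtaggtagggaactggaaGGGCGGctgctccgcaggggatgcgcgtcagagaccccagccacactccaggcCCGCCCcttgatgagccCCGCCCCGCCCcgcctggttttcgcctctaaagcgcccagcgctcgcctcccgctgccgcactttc
Thpo chr16:20734462-20734761 (minus strand): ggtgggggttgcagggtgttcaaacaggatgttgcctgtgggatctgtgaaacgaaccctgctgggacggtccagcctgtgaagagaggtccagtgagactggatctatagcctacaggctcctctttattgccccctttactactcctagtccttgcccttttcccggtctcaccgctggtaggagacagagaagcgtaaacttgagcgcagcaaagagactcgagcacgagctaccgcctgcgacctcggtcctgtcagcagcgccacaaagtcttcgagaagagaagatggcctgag
Ackr3 chr1:90203730-90204029 (plus strand): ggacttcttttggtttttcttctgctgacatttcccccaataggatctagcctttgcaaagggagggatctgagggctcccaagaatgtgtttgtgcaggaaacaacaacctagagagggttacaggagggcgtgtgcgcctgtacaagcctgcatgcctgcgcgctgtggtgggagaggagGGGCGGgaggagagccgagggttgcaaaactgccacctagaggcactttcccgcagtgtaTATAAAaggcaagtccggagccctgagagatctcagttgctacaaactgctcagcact
Cxcr4 chr1:128592250-128592549 (minus strand): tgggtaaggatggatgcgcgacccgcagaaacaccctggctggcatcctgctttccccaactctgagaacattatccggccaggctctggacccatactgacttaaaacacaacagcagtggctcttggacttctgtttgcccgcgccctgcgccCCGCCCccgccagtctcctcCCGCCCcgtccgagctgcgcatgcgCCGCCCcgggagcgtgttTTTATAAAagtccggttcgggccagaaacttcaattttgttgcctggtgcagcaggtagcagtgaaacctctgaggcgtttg
These 5 short motifs were searched on both strands of 32851 such windows. The TATA box, spelled TATAAA, stood in 13.6% of them. The core of the hypoxia response element, spelled ACGTG, stood in 19.6%, and the GATA motif, spelled AGATAA, in 11.2%. A site of the liver factor HNF4, spelled CAAAGTCCA, stood in 0.475%, and the GC box of Sp1, spelled GGGCGG, in 35.7%. The *Cxcl12* window held 5 GC boxes, of which 2 overlap, and no TATA box. The *Ackr3* window held 1 TATA box and 1 GC box, and the *Cxcr4* window held 3 GC boxes and a TATA box matched on both strands in overlapping letters. The *Thpo* window held none of the 5 motifs, whereas the window of a second RefSeq start of *Thpo*, chr16:20730549-20730848, held 1 GC box. A match is a description of the letters only.

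At E14.5 the ligands *Cxcl12*, *Thpo*, and *Csf1* were all highest in CD54+CD31- cells and lowest in P2 cells. They differed in the CD31+ cells: *Csf1* was at a level near that of CD54+CD31- cells there, whereas *Cxcl12* and *Thpo* were far nearer to the P2 level. *Cxcl12* had 168.4, 168.7, and 169.1 CPM in the 3 CD54+CD31- libraries, 5.15, 5.47, and 6.10 CPM in CD31+ cells, and 3.40, 2.89, and 3.77 CPM in P2 cells. No library of one population overlapped with those of another. The level was 30.4-fold lower in CD31+ than in CD54+CD31- cells (log2 fold change -4.93 ± 0.12 SE, adjusted p = 4.01e-10, edgeR's quasi-likelihood test) and 50.9-fold lower in P2 cells (log2 fold change -5.67 ± 0.13 SE, adjusted p = 1.95e-10, edgeR). P2 cells were also below CD31+ cells, by 1.67-fold (adjusted p = 1.47e-04, edgeR).

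*Thpo* followed the same order. It had 18.7, 15.5, and 16.3 CPM in CD54+CD31- cells, 0.593, 0.267, and 0.333 CPM in CD31+ cells, and 0.207, 0.250, and 0.116 CPM in P2 cells. The CD54+CD31- libraries were far above all others, and the other 6 libraries all lay under 1 CPM without overlap between CD31+ and P2 cells. *Thpo* was 42.4-fold lower in CD31+ cells (log2 fold change -5.41 ± 0.31 SE, adjusted p = 1.14e-07, edgeR) and 89.0-fold lower in P2 cells (log2 fold change -6.48 ± 0.34 SE, adjusted p = 5.19e-08, edgeR) than in CD54+CD31- cells. The 2.10-fold difference between P2 and CD31+ cells had an adjusted p of 0.0254 (edgeR). It was lost without CD31+ replicate 1 (adjusted p = 0.0968), P2 replicate 1 (0.0572), or P2 replicate 3 (0.101, all edgeR), and over 17 alternatives that p lay between 0.00829 and 0.257. *Chrd*, the gene that overlaps *Thpo*, had 2.22 CPM in CD54+CD31- cells, 0.0508 CPM in CD31+ cells, and 0.0477 CPM in P2 cells at E14.5.

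*Csf1* had 31.0, 28.0, and 31.5 CPM in CD54+CD31- cells, 17.0, 16.9, and 23.9 CPM in CD31+ cells, and 0.597, 0.999, and 1.35 CPM in P2 cells. Its P2 libraries lay far below the other 6, and the CD31+ libraries lay below the CD54+CD31- libraries without overlap. P2 cells were 30.8-fold below CD54+CD31- cells (log2 fold change -4.94 ± 0.26 SE, adjusted p = 5.84e-08, edgeR) and 19.6-fold below CD31+ cells (log2 fold change -4.29 ± 0.26 SE, adjusted p = 2.14e-07, edgeR). The smaller 1.57-fold difference between CD31+ and CD54+CD31- cells passed the test (adjusted p = 0.0187, edgeR) but not without CD54+CD31- replicate 3 (adjusted p = 0.0551) or CD31+ replicate 1 (0.0637, both edgeR).

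**Figure D2:**
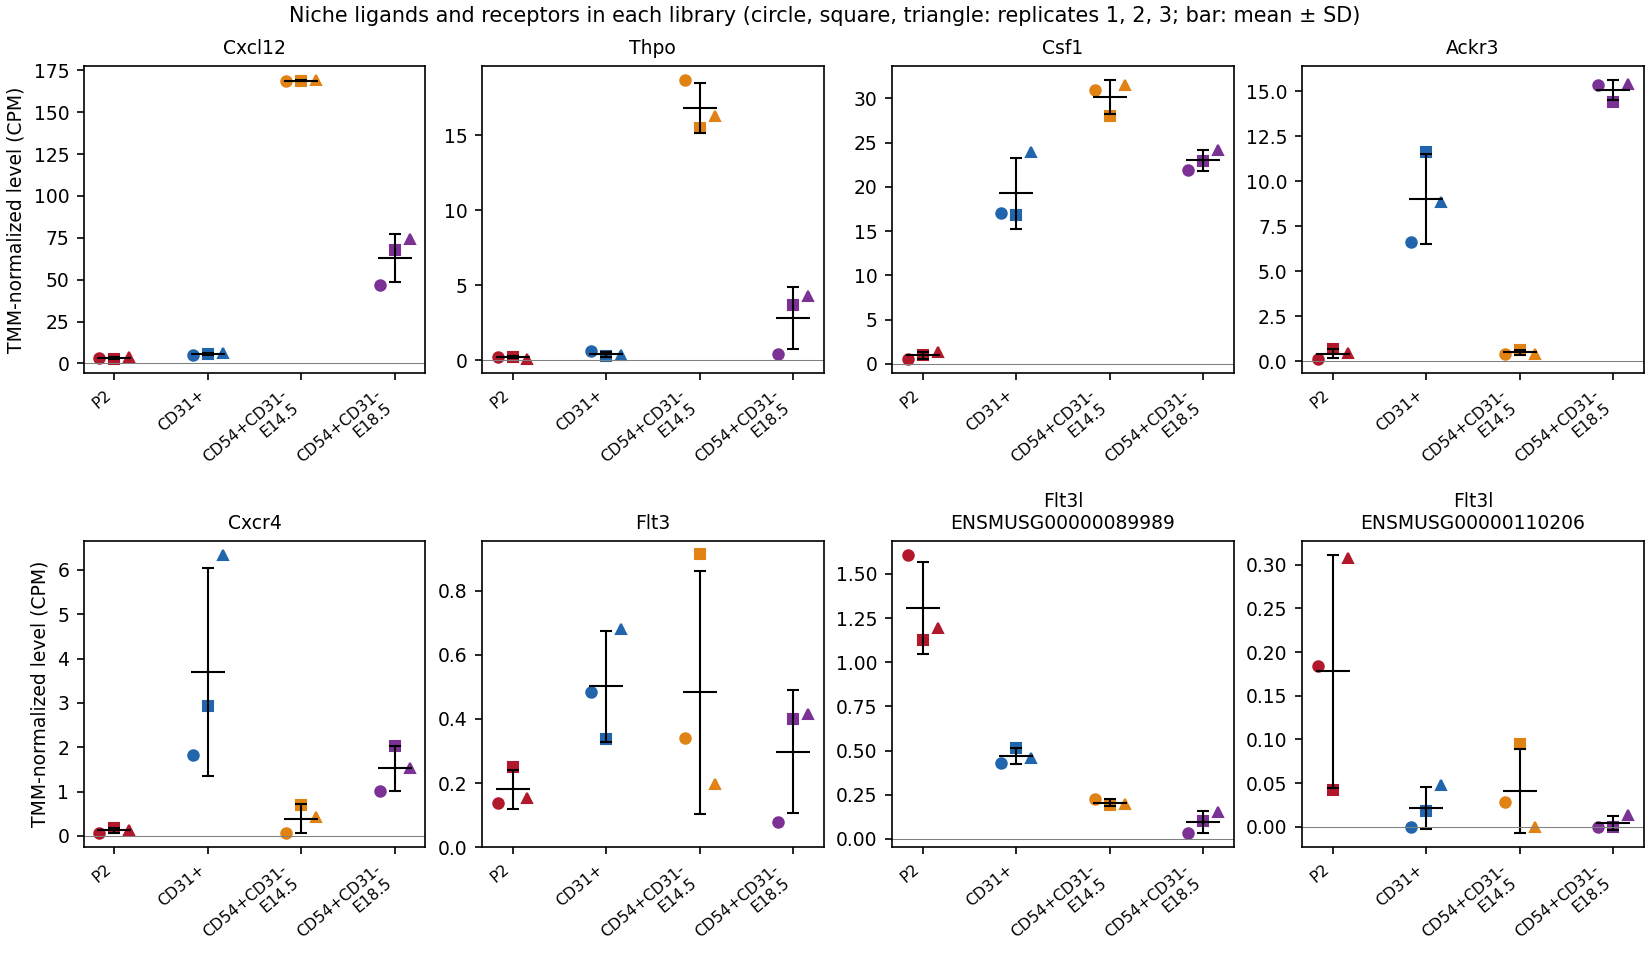
TMM-normalized level (CPM, linear axis, a scale of its own for each gene) of each member row in the 12 libraries, except *Angptl2*, which was at 0 in all; circles, squares, and triangles are replicates 1, 2, and 3, and bars are mean ± SD of 3 libraries. *Cxcl12* and *Thpo* stood highest in CD54+CD31- cells at E14.5 (169 and 16.8 CPM), *Csf1* was low only in P2 cells (0.981 CPM), and *Ackr3* and *Cxcr4* were higher in CD31+ and E18.5 cells than in the other two groups.

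The low levels of *Thpo* in P2 and CD31+ cells were set beside those of hepatoblast genes in the same libraries. P2 cells held 11 hepatoblast markers at 0.824% (*Apoa2*) to 1.36% (*Hnf4a*) of their level in CD54+CD31- cells, with a median of 1.04%. CD31+ cells held the same markers at 1.07% (*Alb*) to 1.50% (*Hnf4a*), with a median of 1.33%. *Thpo* stood at 1.13% in P2 cells, within the range of these markers, and at 2.36% in CD31+ cells, above these 11, which are not the whole list. *Cxcl12* stood at 1.99% and 3.30%, above each of them in both populations. *Csf1* stood at 3.25% in P2 cells and 63.9% in CD31+ cells, and the latter lay far above every hepatoblast marker. The CD54+CD31- libraries at E14.5 also held mesenchymal and stellate RNA, with a sum of 12 markers between 1175 and 1228 CPM. That sum was between 61.7 and 91.6 CPM in P2 cells and between 104 and 123 CPM in CD31+ cells. What part hepatoblast, mesenchymal, or stellate RNA had in these levels of *Thpo* and *Cxcl12* was not tested.

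**Figure D3:**
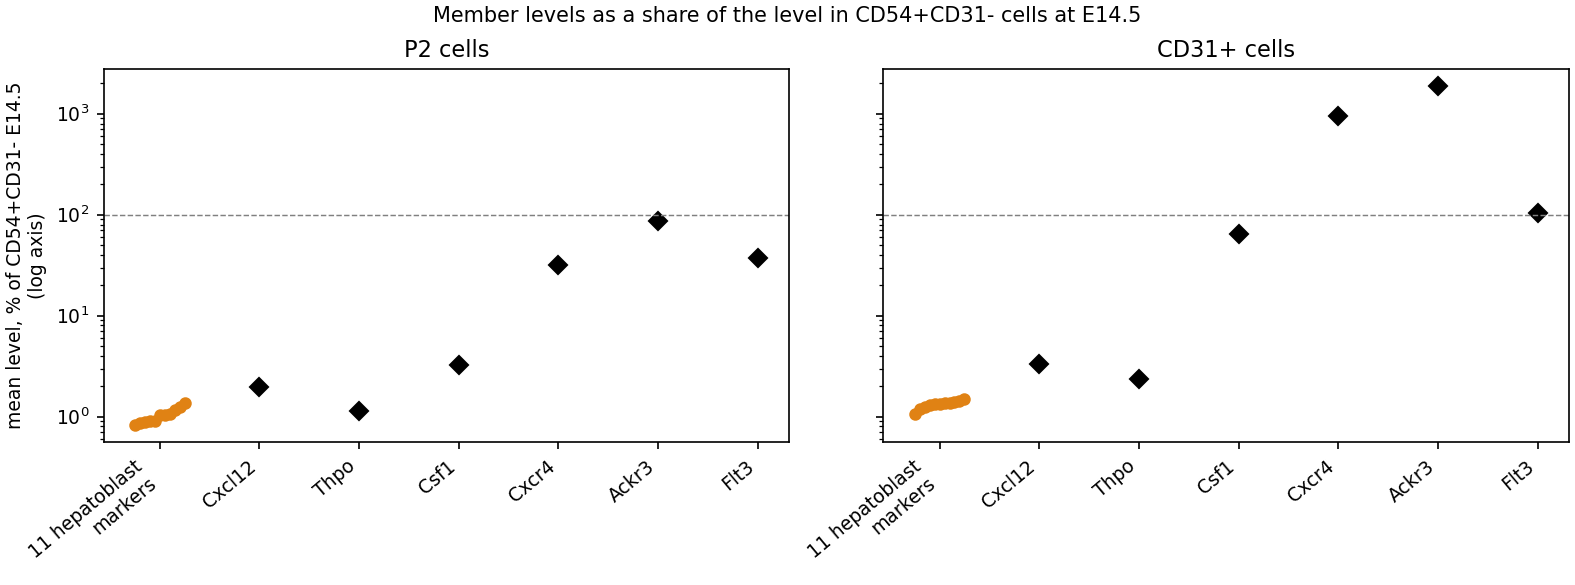
Mean level in P2 cells (left) and CD31+ cells (right) as a percentage of the mean level in CD54+CD31- cells at E14.5 (log axis; dashed line, 100%). Orange points are 11 hepatoblast markers and black diamonds are members: *Thpo* lay at 1.13% and 2.36% beside marker medians of 1.04% and 1.33%, and *Csf1* (63.9%), *Cxcr4* (949.2%), and *Ackr3* (1873%) lay far above it in CD31+ cells.

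The receptors of CXCL12 showed the opposite arrangement from their ligand at E14.5. Both *Ackr3* and *Cxcr4* were higher in CD31+ cells, where *Cxcl12* was low, than in CD54+CD31- cells. *Ackr3* had 6.61, 11.6, and 8.86 CPM in CD31+ cells, 0.396, 0.630, and 0.420 CPM in CD54+CD31- cells, and 0.138, 0.666, and 0.443 CPM in P2 cells. All CD31+ libraries lay above the others, whose ranges overlapped. *Ackr3* was 18.7-fold higher in CD31+ than in CD54+CD31- cells (log2 fold change 4.22 ± 0.45 SE, adjusted p = 1.36e-05, edgeR) and 21.5-fold lower in P2 than in CD31+ cells (adjusted p = 6.96e-06, edgeR). The difference between P2 and CD54+CD31- cells did not pass the test (log2 fold change -0.20, 95% interval -1.29 to 0.88, adjusted p = 0.724, edgeR). P2 replicate 2, the P2 library with the most endothelial RNA, was also the highest of the 3 in *Ackr3* and in *Cxcr4* below, and the part of that RNA was not tested. Without it, the log2 fold change of *Ackr3* in P2 cells was -4.91 against CD31+ cells (adjusted p = 2.10e-06, edgeR) and -0.69 against CD54+CD31- cells (0.234, edgeR).

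*Cxcr4* had 1.81, 2.94, and 6.34 CPM in CD31+ cells, which rested on 101, 165, and 400 counts. It had 0.0566, 0.692, and 0.420 CPM in CD54+CD31- cells (2, 22, and 17 counts) and 0.0689, 0.167, and 0.135 CPM in P2 cells (3, 8, and 7 counts). The CD31+ libraries lay above the rest and differed among themselves by more than those of *Ackr3*. *Cxcr4* was 9.52-fold higher in CD31+ than in CD54+CD31- cells (log2 fold change 3.25 ± 0.68 SE, adjusted p = 0.00180, edgeR) and 29.3-fold lower in P2 than in CD31+ cells (adjusted p = 1.86e-04, edgeR). Between P2 and CD54+CD31- cells the difference was not past the threshold (log2 fold change -1.62, 95% interval -3.45 to 0.20, adjusted p = 0.101, edgeR), and without CD54+CD31- replicate 1 it was (adjusted p = 0.0214, edgeR). Without P2 replicate 2, the log2 fold change of P2 cells was -5.12 against CD31+ cells (adjusted p = 3.18e-04, edgeR) and -1.88 against CD54+CD31- cells (0.0983, edgeR). The order of *Cxcr4* among the CD31+ libraries was also that of *Ptprc*, which encodes CD45, at 8.17, 8.96, and 16.1 CPM, and of the summed level of 12 macrophage markers, at 154, 164, and 214 CPM. Both were as high in the CD54+CD31- libraries, at 8.83 to 15.3 CPM and 178 to 255 CPM, where *Cxcr4* was lower. Megakaryocyte RNA did differ, with all 9 markers called higher in CD31+ than in CD54+CD31- cells. Their summed level was 417, 708, and 570 CPM in CD31+ replicates 1, 2, and 3, which is not the order of *Cxcr4*. It was between 56.3 and 69.0 CPM in CD54+CD31- cells at E14.5. Other lists that hold blood cell genes differed too. The sum of 12 lymphoid and dendritic markers was 209, 169, and 148 CPM in CD31+ replicates 1, 2, and 3. In CD54+CD31- cells it was between 12.1 and 19.5 CPM, with 3 of 4 tested genes called higher in CD31+ cells. Of 10 stem and multipotent progenitor markers, 6 were called higher and 2 lower, with sums of 361, 353, and 329 CPM in CD31+ cells. Of 11 erythroid genes tested, 1 was called higher and 7 lower. What part blood cells had in the *Cxcr4* level of CD31+ cells was not tested.

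*Flt3* was near the limit of detection everywhere. It had 12, 29, and 8 counts in CD54+CD31- cells (0.483 ± 0.379 CPM, SD, n = 3), 27, 19, and 43 counts in CD31+ cells (0.502 ± 0.172 CPM, SD, n = 3), and 6, 12, and 8 counts in P2 cells (0.181 ± 0.0605 CPM, SD, n = 3). The libraries of CD54+CD31- cells overlapped with those of both other populations. None of its differences passed the threshold: the lowest adjusted p, between P2 and CD31+ cells, was 0.0501 (edgeR; unadjusted p = 0.0369), and that p lay between 0.0214 and 0.177 over 17 alternatives.

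The *Flt3l* row ENSMUSG00000089989 had 70, 54, and 62 counts in P2 cells, 24, 29, and 29 in CD31+ cells, and 8, 6, and 8 in CD54+CD31- cells at E14.5. It was called higher in P2 than in CD54+CD31- cells (log2 fold change 2.64 ± 0.37 SE, adjusted p = 8.92e-05, edgeR) and CD31+ cells (1.46 ± 0.33, adjusted p = 0.00233, edgeR). CD31+ cells were called above CD54+CD31- cells (1.18 ± 0.37 SE, adjusted p = 0.0174, edgeR), but not without CD54+CD31- replicate 2 (adjusted p = 0.0681) or 3 (0.0527) or CD31+ replicate 2 (0.0532, all edgeR). This is the row whose free bases adjoin *Rpl13a*, and the *Rpl13a* row had 33.9 ± 7.75 CPM (SD, n = 3) in P2 cells, 22.1 ± 3.99 CPM (SD, n = 3) in CD54+CD31- cells, and 15.2 ± 3.48 CPM (SD, n = 3) in CD31+ cells. That row in turn shares 88.6% of its span with ENSMUSG00000089989 on the same strand, so these values are no measure of *Rpl13a* expression. The row of the annotated gene, ENSMUSG00000110206, had 8, 2, and 16 counts in P2 cells, 1, 3, and 0 in CD54+CD31- cells, and 0, 1, and 3 in CD31+ cells, and fell below the low count filter.

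The CSF1 receptor and its second ligand were read from lists of the wider niche. *Csf1r* had 33.8, 42.7, and 60.6 CPM in CD54+CD31- cells, 8.77, 11.1, and 15.5 CPM in CD31+ cells, and 1.33, 1.29, and 1.21 CPM in P2 cells, so this receptor, like *Csf1*, was highest in CD54+CD31- cells. The sum of 12 macrophage markers was 178, 183, and 255 CPM in the same 3 CD54+CD31- libraries and between 7.21 and 14.6 CPM in P2 cells, and their part was not tested either. *Il34*, the second ligand of CSF1R, was 10.9-fold higher in CD31+ than in CD54+CD31- cells (2.71 ± 1.88 against 0.242 ± 0.110 CPM, SD, n = 3 each; adjusted p = 7.27e-04, edgeR).

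Counted over the member rows, 7 of 9 passed the low count filter at E14.5: all but *Angptl2* and the *Flt3l* row ENSMUSG00000110206. Between P2 and CD54+CD31- cells, 1 was called higher and 3 lower, beside 70.0% of all 15461 genes tested (33.8% higher and 36.1% lower). Between P2 and CD31+ cells, 1 was called higher and 5 lower, beside 73.7% of all genes (34.3% higher and 39.4% lower). Between CD31+ and CD54+CD31- cells, 3 were called higher and 3 lower, beside 65.6% of all genes (31.7% higher and 34.0% lower). The shares called were thus near the background, since most genes differed between these populations. Groups without overlapping libraries were found for 4, 7, and 6 of the 7 rows in these comparisons, beside 75.3%, 77.1%, and 69.5% of all genes. Called with at least a 4-fold change were 4, 3, and 4 of the 7 rows, beside 23.6%, 24.5%, and 23.0% of all genes. The median absolute log2 fold change was 2.64, 1.47, and 3.25, beside 0.96, 1.02, and 0.80. The members were chosen with earlier results of these data known, so these sizes are a description only. Rows such as *Cxcr4* also passed the low count filter with few counts outside the group where they were high. With at least 10 counts in every library, only *Cxcl12* and *Csf1* were tested. The row called higher in both P2 comparisons was the *Flt3l* row ENSMUSG00000089989, which was not read as *Flt3l* expression. It was also among the rows called higher in CD31+ than in CD54+CD31- cells. Between P2 and CD54+CD31- cells it was among the 4 rows with at least a 4-fold change, and the median of 2.64 was its value. The median of 1.47 was the value of *Flt3*, which was not called. Without P2 replicate 2, the numbers called higher and lower were the same in all 3 comparisons.

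**Figure D4:**
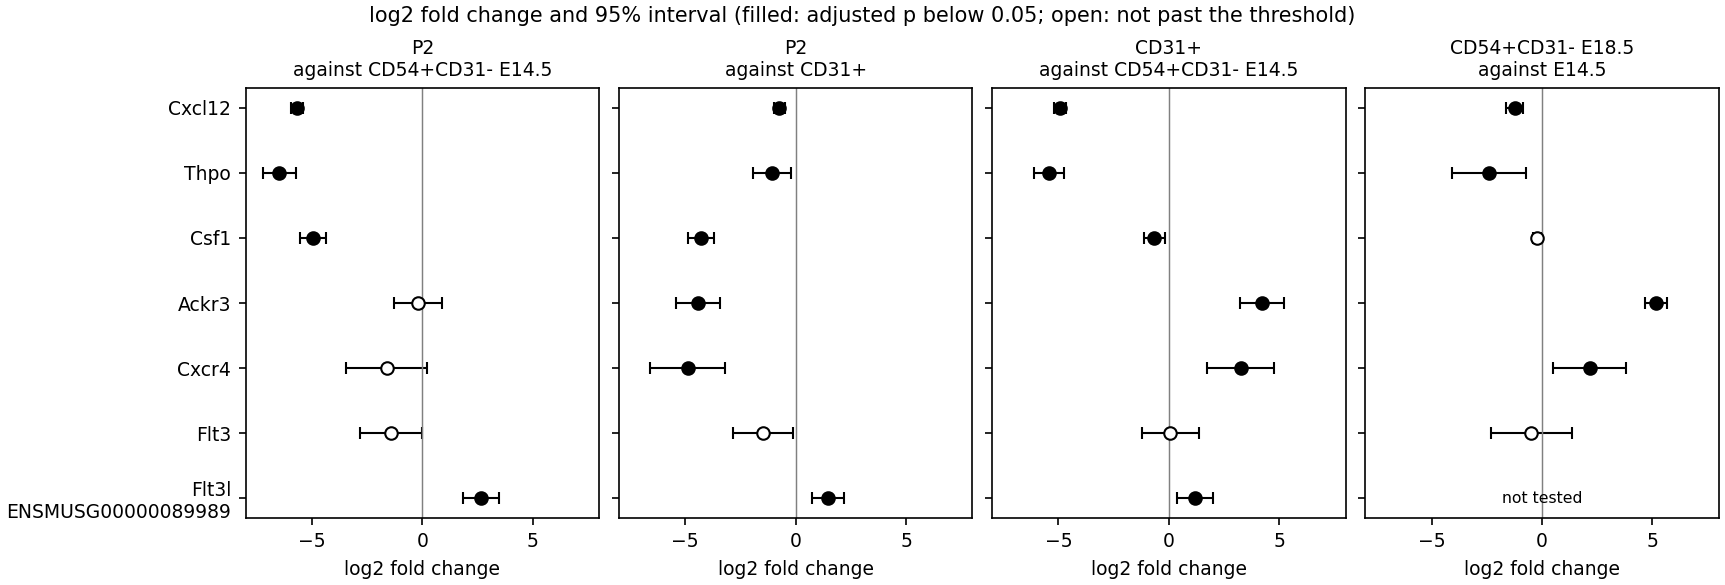
log2 fold change of each tested member row with its 95% interval in the 4 main comparisons (3 libraries per group, edgeR's quasi-likelihood test); filled points passed an adjusted p of 0.05 and open points did not. *Cxcl12*, *Thpo*, and *Csf1* fell in P2 cells against both other populations, and *Ackr3* and *Cxcr4* rose in CD31+ cells and at E18.5.

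In CD54+CD31- cells, *Cxcl12* and *Thpo* fell from E14.5 to E18.5, and *Ackr3* and *Cxcr4* rose. *Csf1* did not pass the test. *Cxcl12* had 47.0, 67.5, and 74.3 CPM at E18.5, all below the 168.4 to 169.1 CPM of E14.5. It was 2.36-fold lower (log2 fold change -1.24 ± 0.16 SE, adjusted p = 5.95e-04, edgeR), and without E18.5 replicate 1 the log2 fold change was -1.08 (adjusted p = 5.07e-06, edgeR). *Thpo* had 0.433, 3.70, and 4.32 CPM at E18.5, on 28, 286, and 312 counts. It was 5.28-fold lower than at E14.5 (log2 fold change -2.40 ± 0.70 SE, adjusted p = 0.0191, edgeR), with -1.90 (adjusted p = 7.81e-06, edgeR) when E18.5 replicate 1 was left out. The call was lost when E14.5 replicate 1 or 3 was left out, at adjusted p of 0.0580 and 0.0505 (edgeR). *Chrd* was at 2.22 CPM at E14.5 and 2.18 CPM at E18.5.

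*Ackr3* had 15.3, 14.4, and 15.4 CPM at E18.5, with little spread and no sign of the distance between replicate 1 and the others. It was 35.7-fold higher than at E14.5 (log2 fold change 5.16 ± 0.21 SE, adjusted p = 1.42e-05, edgeR), and 5.13 on the log2 scale without replicate 1 (adjusted p = 1.43e-07, edgeR). *Cxcr4* had 1.01, 2.02, and 1.54 CPM and was 4.48-fold higher (log2 fold change 2.16 ± 0.69 SE, adjusted p = 0.0275, edgeR), and 2.37 on the log2 scale without replicate 1 (adjusted p = 0.00816, edgeR). The *Cxcr4* call was lost without E14.5 replicate 3 (adjusted p = 0.0830), E18.5 replicate 2 (0.0889), or E18.5 replicate 3 (0.0625, all edgeR). *Csf1* had 21.9, 23.0, and 24.2 CPM, all below the E14.5 libraries (log2 fold change -0.21, 95% interval -0.43 to 0.015, adjusted p = 0.0849, edgeR), and without replicate 1 its adjusted p was 0.114 (edgeR). That order depended on the scaling. By plain total count *Csf1* had a mean of 23.5 CPM at E14.5 and 27.1 CPM at E18.5. With the authors' factors the means were 29.0 and 29.5 CPM, and with DESeq2's size factors 28.5 and 24.9 CPM. *Flt3* had 5, 31, and 30 counts and was not called (log2 fold change -0.48, 95% interval -2.33 to 1.36, adjusted p = 0.597, edgeR, and 0.952 without replicate 1). The *Flt3l* rows had 2, 8, and 11 counts and 0, 0, and 1 count, and neither was tested. *Csf1r* had 14.6, 44.5, and 44.7 CPM and did not pass the test against E14.5 (adjusted p = 0.663, edgeR, and 0.544 without replicate 1). Of the 6 rows tested, 2 were called higher and 2 lower, beside 69.4% of all 15863 genes tested (35.9% higher and 33.5% lower), and the same numbers were called without replicate 1. Libraries did not overlap for 5 of the 6, with *Csf1* among them under this scaling, beside 77.8% of all genes. At least a 4-fold change was called for 3, beside 23.1%, which is again a description only.

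The members differed in how they followed the libraries at E18.5. Replicate 1 held *Thpo* at 0.108 of the mean of replicates 2 and 3. The 11 hepatoblast markers had a median ratio of 0.0991, with a range from 0.0632 to 1.67, and 7 of the 11 were below 1. *Cxcl12* had a ratio of 0.663, *Csf1* 0.928, and *Ackr3* 1.03. Mesenchymal and stellate cell markers, 11 of which had enough counts, had a median ratio of 1.07, with a range from 0.347 to 1.35 and 5 below 1. The 15 lung epithelial markers had a median ratio of 1.93 and none below 1. *Cxcr4* had a ratio of 0.566 and *Flt3*, on few counts, of 0.190. Of the macrophage markers, 11 of 12 were below 1, with a median of 0.326, and the exception was *Lyz2*, which alveolar cells also express, at 2.67. Below 1 were also 11 of 11 erythroid markers (median 0.237) and 8 of 9 megakaryocyte markers (0.883). The same held for 6 of 8 lymphoid and dendritic markers (0.601) and 5 of 10 stem and multipotent progenitor markers (0.971). Marker sums also moved with age. The lung epithelial sum was between 165.6 and 180.5 CPM at E14.5 and between 12036 and 25662 CPM at E18.5. The mesenchymal and stellate sum was between 1175 and 1228 CPM at E14.5 and between 4254 and 4483 CPM at E18.5, with 10 of 11 tested genes called higher. The endothelial sum rose from between 53.2 and 85.0 CPM to between 198 and 259 CPM, with all 12 genes called higher, and the sum of 10 heart markers, with 7 of 8 tested called higher, from between 1.38 and 3.93 CPM to between 176 and 381 CPM. What part these cells had in the E18.5 levels of the members was not tested, and a change with age in liver cells cannot be told apart here from a change in the cells collected.

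**Figure D5:**
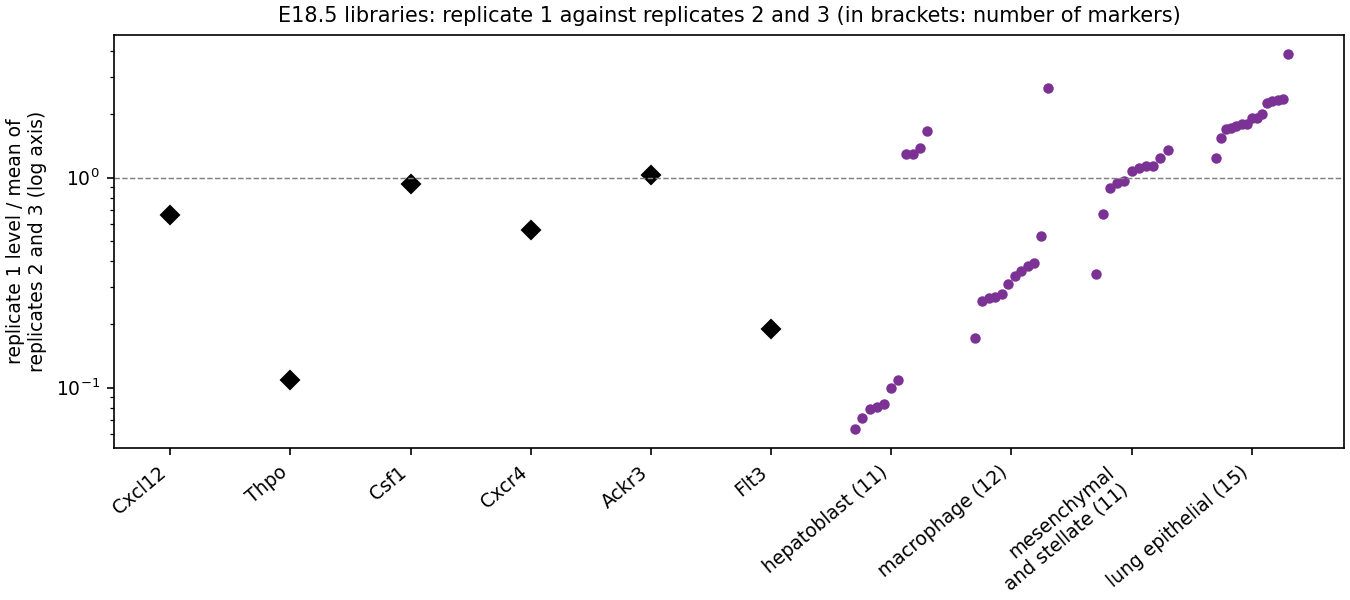
Level in replicate 1 divided by the mean of replicates 2 and 3 among the E18.5 libraries (log axis; dashed line, a ratio of 1), for 6 members (black) and for the genes of 4 marker lists (purple, number of genes in brackets). *Thpo* (0.108) lay with most hepatoblast markers (median 0.0991), and *Ackr3* (1.03) and *Csf1* (0.928) lay near 1.

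Over the 4 groups, the order of *Cxcl12* was CD54+CD31- at E14.5, CD54+CD31- at E18.5, CD31+, and P2, and all neighbours in that order differed. At E18.5 it was still 3.50 on the log2 scale above CD31+ cells (adjusted p = 2.44e-08, edgeR), and 3.67 without E18.5 replicate 1 (adjusted p = 4.18e-10, edgeR). *Thpo* had the same order, and its E18.5 level was above that of CD31+ cells by 2.83 on the log2 scale (adjusted p = 0.00253, edgeR) and by 3.34 without replicate 1 (adjusted p = 1.37e-06, edgeR), although its replicate 1 library fell within the CD31+ range. For *Csf1* the first 3 groups in the order, CD54+CD31- at E14.5 and at E18.5 and CD31+, had neighbours whose tests missed the threshold, and P2 lay far below them. The libraries of the 2 ages did not overlap under TMM, but their order changed with the scaling, as given above. For *Ackr3*, E18.5 cells (15.1 ± 0.564 CPM, SD, n = 3) lay above CD31+ cells (9.02 ± 2.50 CPM, SD, n = 3) without overlap, and the test was not past the threshold (log2 fold change 0.74 ± 0.33 SE, adjusted p = 0.0685, and 0.0788 without E18.5 replicate 1, edgeR). It passed the threshold in 11 of 18 alternatives: with DESeq2 (0.00847), DESeq2's size factors (0.0307), the authors' factors (0.0143), no low count filter (0.0212), or a replicate block (0.0283), and with CD54+CD31- E14.5 replicate 1, 2, or 3, CD31+ replicate 2, or P2 replicate 1 or 2 left out, and the adjusted p over the libraries left out lay between 0.00927 and 0.205 (edgeR). For *Cxcr4*, CD31+ cells came first and E18.5 cells second with overlapping libraries (log2 fold change -1.28 ± 0.60 SE for E18.5 against CD31+ cells, adjusted p = 0.0775, and 0.165 without E18.5 replicate 1, edgeR), and without CD31+ replicate 1 the difference was past the threshold (0.0393, edgeR). In these all-library tests, 2 of 7 member rows were called higher and 1 lower at E18.5 than in CD31+ cells, beside 68.5% of all 16643 genes (29.7% higher and 38.8% lower). Against P2 cells 5 were called higher and 1 lower, beside 80.6% (44.0% higher and 36.6% lower). The same numbers were called without E18.5 replicate 1. The row called lower in both comparisons was the *Flt3l* row ENSMUSG00000089989.

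A list of 29 further niche ligands was described beside the members. Of 18 that could be tested in P2 cells, 10 were called lower and 2 higher than in CD54+CD31- cells (median log2 fold change -1.68, and -0.01 over all genes), and 14 lower and 2 higher than in CD31+ cells (median -2.23, and -0.13 over all genes). When each library had to hold at least 10 counts of a gene, the latter numbers were 9 and 1 of 12. *Kitl*, the ligand of KIT, fell from 149 ± 7.71 CPM in CD54+CD31- cells and 88.8 ± 5.51 CPM in CD31+ cells to 3.78 ± 1.74 CPM in P2 cells (SD, n = 3 each), where *Kit*, a marker of their sort, was highest (323 ± 32.0 CPM, SD, n = 3). *Igf2*, a fetal growth factor, was lower in P2 cells by 6.24 on the log2 scale, and *Il7*, a lymphoid growth factor, by 6.03 (adjusted p = 5.91e-10 and 1.20e-06, edgeR). *Tgfb1* was the ligand that rose most in P2 cells against CD54+CD31- cells, by 2.19 on the log2 scale (adjusted p = 1.39e-06, edgeR), followed by *Osm*, at 1.48 (0.0272). Against CD31+ cells the higher ligands were *Angptl4* (24.4 against 4.45 CPM) and *Il11*, and *Cxcl1*, *Cxcl16*, and *Kitl* fell most. Between CD31+ and CD54+CD31- cells, 6 of 18 ligands were called higher and 8 lower, beside 31.7% and 34.0% of all genes (median log2 fold change -0.22, and -0.03 over all genes). *Cxcl16*, *Il34*, and *Tgfb1* led the higher ones and *Il7*, *Angptl6*, and *Igf2* the lower ones. *Epo*, whose span shares 31.0% with other genes, had 10.2 CPM in CD54+CD31- cells and was lower in P2 cells (6.44 CPM, adjusted p = 0.00802) and CD31+ cells (5.15 CPM, 9.42e-04, both edgeR). The span of that row was 50223 bases, of which 855 were exon bases, and a gene lying wholly inside it had 0 counts. How much of its count came from *Epo* transcripts cannot be told here, so these values are no measure of *Epo* expression. The row stays in the counts and medians of this list. It was among those called lower in P2 and CD31+ cells than in CD54+CD31- cells, and among those called lower at E18.5 below.

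From E14.5 to E18.5, 12 of 22 tested ligands were called higher and 5 lower in CD54+CD31- cells, and the median over the 22 was 0.91 on the log2 scale (0.03 over all genes). Without E18.5 replicate 1 the numbers were 12 and 6, and when each library had to hold at least 10 counts of a gene they were 5 and 5 of 15. The log2 fold changes of this paragraph are given with all libraries and then without E18.5 replicate 1, and all passed the test both ways. *Il34* rose from 0.242 ± 0.110 to 11.3 ± 2.00 CPM (SD, n = 3 each; log2 fold change 5.68 ± 0.34 SE and then 5.53, adjusted p = 2.96e-05 and 7.31e-07, edgeR), and *Cxcl14*, a chemokine of epithelia, by 3.83 and then 3.28 on the log2 scale (adjusted p = 0.00118 and 5.98e-04, edgeR). *Csf2* had 0 counts in the E14.5 libraries and 0.587 ± 0.152 CPM (SD, n = 3) at E18.5, at least 21.0-fold above the level of 3 counts over the E14.5 group, with 86.3% of its span shared with other genes. *Kitl* fell by 2.02 both ways on the log2 scale (adjusted p = 1.51e-05 and 1.98e-07, edgeR). *Igf2*, at 2972 ± 1449 CPM (SD, n = 3) at E18.5, fell by 1.83 and then 1.49 (adjusted p = 0.00911 and 9.37e-05, edgeR), and *Angptl6* by 1.22 and then 0.93 (0.0125 and 0.00133, edgeR).

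Of 29 further niche receptors, 24 were tested at E14.5. P2 cells had 19 lower and 4 higher than CD54+CD31- cells (median log2 fold change -2.98, or -2.66 with receptors at 0 in a group set to their bound) and 20 lower and 2 higher than CD31+ cells (median -3.15). The higher ones included *Kit*, *Igf1r*, and *Epor*, the erythropoietin receptor, at 93.3 ± 6.31 CPM against 13.5 ± 3.94 CPM in CD54+CD31- cells (SD, n = 3 each), and against CD31+ cells they were *Epor* and *Kit* alone. P2 cells were sorted as Kit+, so their high *Kit* level is no separate result. *Lifr* and *Csf1r* fell by 5.07 and 5.18 on the log2 scale against CD54+CD31- cells, and *Osmr* by 6.20 against CD31+ cells. *Cxcr2* had 0 counts in P2 cells and was at least 8.17-fold below CD54+CD31- cells and 47.8-fold below CD31+ cells, and *Cxcr3*, also at 0, at least 15.3-fold below CD31+ cells. CD31+ cells had 12 receptors higher and 6 lower than CD54+CD31- cells (median 0.65). *Tek*, the angiopoietin receptor of endothelium, led with 661 ± 109 against 2.76 ± 0.805 CPM (SD, n = 3 each), followed by *Osmr* and *Csf2rb2*, whereas *Il15ra*, *Csf1r*, and *Igf2r* fell most. At E18.5, 9 of 25 were called higher and 4 lower than at E14.5 (10 and 4 without replicate 1), with a median of 0.16: *Osmr*, *Ptprz1*, and *Igf1r* rose most, by 5.84, 3.59, and 3.14 on the log2 scale (5.62, 3.47, and 3.02 without replicate 1), and *Epor*, *Igf2r*, and *Ackr1* fell most, by 2.32, 1.89, and 1.87 (and then decreased by 2.00, 1.78, and 1.49). Both lists are described by their counts and medians only, and a share of receptors or ligands called is to be read beside the 65.6% to 73.7% of all genes called in the same 4 comparisons. By direction, 31.7% to 35.9% of all genes were called higher and 33.5% to 39.4% lower.

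Across the 12 libraries and 16642 other genes, the genes whose log2(CPM + 1) followed a member most closely by Pearson's r were *Maob*, *Slc16a12*, and *Hkdc1* for *Cxcl12* (0.998 each), *Cdhr2*, *Aadat*, and *Aldh1b1* for *Thpo* (0.999, 0.999, and 0.998), *Tgfa*, *Galnt11*, and *Tcp11l1* for *Csf1* (0.996, 0.995, and 0.994), *Egln3*, *Tspan2*, and *Tmc7* for *Ackr3* (0.994, 0.993, and 0.992), and *Abca13*, *Olr1*, and *Plppr3* for *Cxcr4* (0.965, 0.957, and 0.954). *Flt3* was followed less closely, by *Camp*, *Cd300lb*, and *Nlrp1a* (0.840, 0.838, and 0.811). For the *Flt3l* row ENSMUSG00000089989 the genes were *Zfp992*, *Morc3*, and *Ndor1* (0.989, 0.983, and 0.983). The points of each correlation are the same 12 libraries in 4 groups, so these values mostly describe the order of the group levels.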

How the data were processed

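Per the labels, FL was digested, cells were sorted, ribosomal RNA was removed enzymatically, and stranded total RNA libraries were made. The authors trimmed reads with cutadapt 1.11, aligned them to GRCm38 with STAR 2.5.0a, and counted them with featureCounts 1.4.6-p3, per the submitters' processing notes. The counting settings for strand, introns, and shared reads are not given in the sources used here. The deposited files hold raw counts per gene and a score, which is the count multiplied by 1 DESeq2 factor per library by the authors and rounded. Tests used the counts, and the score served only to read those factors. All 12 libraries were used.

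Groups came from the labels. Counts were tested with edgeR 4.0.16 in R 4.3.3 (limma 3.58.1): TMM, filterByExpr, quasi-likelihood F test, Benjamini-Hochberg adjustment over all genes, and adjusted p below 0.05. The 9 E14.5 libraries were fitted together, the 6 CD54+CD31- libraries apart, and all 12 for E18.5 against CD31+ or P2 cells. The standard error of a change is its absolute log2 value over the square root of F. Precision was set by 3 libraries per group and, for *Cxcr4*, *Flt3*, and *Flt3l*, by low counts, and fold bounds for genes at 0 cover counting error only. Levels of different genes were not compared, because introns seem to be counted and exon lengths would not scale them. GENCODE vM21 held 37932 of 38127 identifiers, and 39 names stood on several, so genes were matched by identifier. Protein sequences were not used here. Alternatives changed 1 choice at a time: the tool (DESeq2 1.42.0), the scaling (size factors of DESeq2 inside edgeR, or the authors' factors), the filter (none, or at least 10 counts for a gene in all libraries), a block on the replicate number, the removal of genes holding over 1% of a library, the libraries fitted together (all 12, or the 6 compared), and the removal of single libraries.

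Members and lists were chosen with earlier results of these data known. The genes named were the 8 members, *Kit*, *Kitl*, *Epo*, *Epor*, *Csf1r*, and *Il34*, in each comparison the 3 largest called changes per direction of the ligand and receptor lists, up to 4 defining markers per marker list, and the 3 genes most like each member. *Ralgps1*, *Rpl13a*, *Chrd*, and the markers at the ends of a range were added after the values were seen. *Lilrb3* was on the receptor list and was not matched in the counts. A few genes of the lists are not reported here and were left out of every count, range and median. With them counted, *Thpo* in CD31+ cells lay within the range of the hepatoblast markers.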

Additional observations from a re-analysis of the deposited data

How the results depend on the processing

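The calls of *Cxcl12*, *Csf1*, *Thpo*, and *Ackr3* between P2 or CD31+ cells and the population that had them highest at E14.5 kept their direction and passed the threshold under every alternative that tested them, except *Csf1* between CD31+ and CD54+CD31- cells, as given above. Of 700 member fold changes under alternatives, 650 kept direction and side of the threshold, 26 passed it newly, 16 lost it, and 8 reversed, none of the 8 past the threshold in the fit reported. *Ackr3* between P2 and CD54+CD31- cells ranged from -0.69 to 0.18 over the libraries left out, *Flt3* between CD31+ and CD54+CD31- cells from -0.32 to 0.81, and *Flt3* between E18.5 and E14.5 from -0.89 to 0.32. *Csf1* between E18.5 and E14.5 reversed to 0.026 with the authors' factors. With a minimum of 10 counts in every library, only 2 member rows were called between P2 and CD54+CD31- cells, between P2 and CD31+ cells, between CD31+ and CD54+CD31- cells, and between E18.5 and P2 cells, as only *Cxcl12* and *Csf1* were then tested. Leaving out libraries moved the count of 4 for E18.5 against E14.5 between 2 and 4, with 2 without CD54+CD31- E14.5 replicate 3. For E18.5 against CD31+ cells 5 rows were called with the authors' factors, against 3. With the replicate number as a block 5 rows were called there too, and 5, 6, 6, and 4 in the 4 main comparisons. Same-numbered libraries deviated together weakly (mean correlation 0.056, 0.124, 0.130, and 0.051 in those comparisons, not above 0.1 in every pair). In 2, 3, 3, and 2 of 3 cases a library correlated best with its own number. The sources used here do not say what the numbers mark, so the reported fit took no pairs, but these values do not exclude a pairing. With the block, *Cxcr4* passed the threshold between P2 and CD54+CD31- cells (adjusted p = 0.0473) and between E18.5 and CD31+ cells (0.0338, both edgeR). The authors' factors shifted the median log2 fold change of all genes by -0.26, -0.37, 0.11, and 0.23, and the share of calls that were higher from 48.3% to 38.2%, 46.6% to 33.9%, 48.3% to 53.4%, and 51.7% to 60.9%. The fit of all 12 libraries shifted it by -0.17 for E18.5 against E14.5. Under other scalings, 92 group levels moved by less than 1 SD and 16 by more, *Ackr3* at E18.5 to between 16.3 and 19.4 CPM. The 92 include every level of *Angptl2*, which is 0 under any scaling. Depth limits *Cxcr4*, *Flt3*, and *Flt3l*, whose libraries held as few as 2, 5, and 0 counts.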
